A study of Homo sapiens with 15 samples.

Results

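The genes of the tricarboxylic acid (TCA) cycle and of pyruvate entry into it were followed in human fat cell cultures. The list held 31 symbols, chosen by enzyme function: the mitochondrial pyruvate carrier, the pyruvate dehydrogenase complex with its kinases and phosphatases, pyruvate carboxylase, the mitochondrial malic enzymes and the enzymes of the cycle. Of these, 29 were measured among 17687 genes, each by 1 probe set, and PDP2 and FH were not analysed here. The list was chosen with earlier results of these data known, so the shares of its genes that changed are descriptions. All samples were ASC52 cells, an adipose mesenchymal stem cell line immortalised with hTERT, the catalytic subunit of telomerase, so every group carries that transgene. The DED group was taken through adipogenic differentiation for 14 days, begun 3 days after seeding, and then kept for 7 days in RPMI with 10% serum that had been conditioned by MDA-MB-231 cells, which are human breast carcinoma cells. The MA group had the same differentiation and then 7 days in control RPMI with 10% serum, and is labelled as mature adipocytes. The MSC group was undifferentiated, and the labels give neither its medium nor its time at harvest. There were 5 arrays per group, all of 1 cell line. The labels do not state whether these are separate cultures, so the tests reflect the spread among the arrays at hand, which may be technical.

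Pyruvate made by glycolysis crosses the inner mitochondrial membrane through a carrier of paired subunits. The pyruvate dehydrogenase complex then turns it into acetyl-CoA, kinases switch that complex off by phosphorylation, and phosphatases switch it back on. Citrate synthase joins acetyl-CoA to oxaloacetate, and the cycle oxidises the citrate while oxaloacetate is made again. In white fat cells much of the citrate is exported to the cytosol, where it is split to supply acetyl-CoA for fatty acid synthesis, and pyruvate carboxylase refills the cycle.

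Values are RMA log2 intensities per probe set, so a difference of 1 is a 2-fold change of intensity and RMA makes any shift shared by all genes unreadable. The median over negative control probe sets was 4.80 and their 95th percentile was 8.31. A gene whose lower group lay under 8.31 is described by its log2 difference and not by a fold. Of the 29 genes, 6 (PDK3, PC, ME3, SUCLG1, SUCLG2 and SUCLA2) had means under 8.31 in all 3 groups. Groups were compared with limma across all genes, and a gene rose or fell where its Benjamini-Hochberg adjusted p was under 0.05. The cells are bulk cultures, in which fewer cells of a type and less RNA per cell cannot be told apart.

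Arrays of 1 group correlated over all genes at 0.982 or more in DED, 0.992 or more in MA and 0.992 or more in MSC, the lowest value being between DED arrays 1 and 3. Of 7 adipocyte markers, 5 had means above 8.31 in DED, 6 in MA and 0 in MSC, and the 6 mesenchymal markers were above it in every group. Of 6 epithelial markers, only KRT8 was above 8.31, in every group, and 0 of them passed the test in any comparison. The 3 endothelial markers and the leukocyte and progenitor markers PTPRC, CD14 and CD34 had means under 8.31 in every group. So had the macrophage markers CSF1R and MRC1, while the macrophage marker CD68 averaged 7.97 in DED, 9.15 in MA and 8.33 in MSC.

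**Figure D1:**
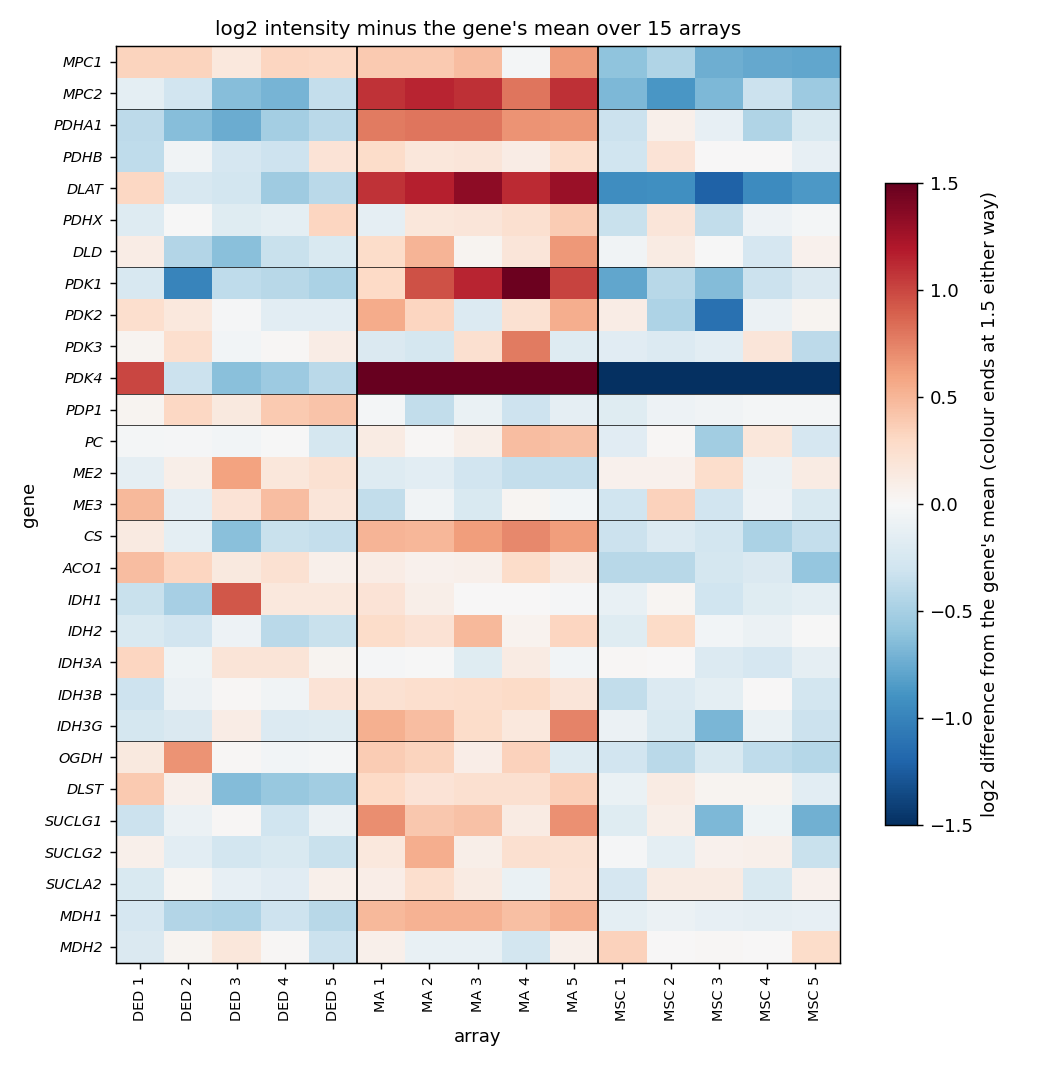
Each row is 1 of the 29 measured genes and each column 1 array; colour is the log2 intensity minus the mean of that gene over the 15 arrays, with the scale ending at 1.5 either way. Lines part the groups and the functional classes, and MPC2, PDHA1, DLAT, PDK1, PDK4, CS and MDH1 are highest in all 5 MA arrays.

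In the comparison of DED with MA, which asks what a week in tumour conditioned medium did to differentiated cells, 14 of the 29 genes fell, 2 rose and 13 did not pass. Across all genes 13% fell and 12.9% rose. The median difference was -0.30 over the 29 genes and 0.018 over all genes. The falls included 1 pyruvate carrier subunit, 4 of 5 subunits of the pyruvate dehydrogenase complex, 2 of its 4 kinases, citrate synthase and cytosolic malate dehydrogenase. A fall with a log2 difference of at least 1 in size was found for 5 of the 29, against 3.48% of all genes, and these were MPC2, PDHA1, DLAT, PDK1 and PDK4, of which PDK1 and PDK4 had DED means under 8.31. All 5 DED arrays lay under all 5 MA arrays for 12 of the 29 genes, against 9.48% of all genes. The members are brighter than the average gene: among genes with a mean of at least 8.31 over all arrays, 22.4% fell, and of the 22 members in that range 11 fell. That mean includes the MA arrays, so the range favours genes that are high in MA. PDK1, at 7.92 in DED and 7.94 in MSC, reached it only through MA and is among the 11.

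The promoter windows of the 5 genes with the largest falls are shown because these genes carry the result. Each is the RefSeq window of GRCh38.p14 from 250 bases before to 50 bases after an annotated start, printed 5′ to 3′ on the strand of the gene. Capitals mark matches, on either strand, to 1 of 5 motifs: AAGGTCA (estrogen-related receptors), GTAAACA (FOXO factors), ACGTG (the core of the hypoxia response element), TGCGCA (the core of the NRF1 motif) and CCAAT (NF-Y). The capitals ATTGG and CACGT are CCAAT and ACGTG read on the other strand, TGCGCA reads the same on both, and no marked matches overlap. MPC2 has 3 such windows and PDK1 has 2, and the one with the most matches is printed. The unprinted windows of MPC2 hold no match to the motifs. The unprinted window of PDK1 holds CCAAT and no ACGTG.
MPC2 (chr1:167935947-167936246, minus strand): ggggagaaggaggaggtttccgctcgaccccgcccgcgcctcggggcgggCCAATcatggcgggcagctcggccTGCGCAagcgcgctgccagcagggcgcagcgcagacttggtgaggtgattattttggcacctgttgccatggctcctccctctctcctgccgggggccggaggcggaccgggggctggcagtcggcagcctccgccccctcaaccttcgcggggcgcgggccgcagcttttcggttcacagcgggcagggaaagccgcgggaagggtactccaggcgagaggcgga
PDHA1 (chrX:19343677-19343976, plus strand): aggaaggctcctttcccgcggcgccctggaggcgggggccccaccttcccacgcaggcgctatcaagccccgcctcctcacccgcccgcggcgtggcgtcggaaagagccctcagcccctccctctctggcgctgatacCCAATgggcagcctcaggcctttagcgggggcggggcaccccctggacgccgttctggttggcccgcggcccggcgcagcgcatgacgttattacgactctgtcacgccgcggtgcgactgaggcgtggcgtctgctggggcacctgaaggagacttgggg
DLAT (chr11:112025158-112025457, plus strand): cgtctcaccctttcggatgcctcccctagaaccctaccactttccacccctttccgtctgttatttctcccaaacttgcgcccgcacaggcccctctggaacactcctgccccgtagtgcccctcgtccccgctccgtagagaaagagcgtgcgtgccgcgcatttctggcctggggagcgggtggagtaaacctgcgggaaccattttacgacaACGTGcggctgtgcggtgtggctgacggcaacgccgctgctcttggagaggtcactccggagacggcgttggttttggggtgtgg
PDK1 (chr2:172555840-172556139, plus strand): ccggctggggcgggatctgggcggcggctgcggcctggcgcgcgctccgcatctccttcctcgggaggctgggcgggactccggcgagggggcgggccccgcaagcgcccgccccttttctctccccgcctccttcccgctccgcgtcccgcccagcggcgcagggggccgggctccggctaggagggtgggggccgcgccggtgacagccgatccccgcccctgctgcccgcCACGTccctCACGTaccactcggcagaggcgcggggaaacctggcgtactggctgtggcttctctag
PDK4 (chr7:95596467-95596766, minus strand): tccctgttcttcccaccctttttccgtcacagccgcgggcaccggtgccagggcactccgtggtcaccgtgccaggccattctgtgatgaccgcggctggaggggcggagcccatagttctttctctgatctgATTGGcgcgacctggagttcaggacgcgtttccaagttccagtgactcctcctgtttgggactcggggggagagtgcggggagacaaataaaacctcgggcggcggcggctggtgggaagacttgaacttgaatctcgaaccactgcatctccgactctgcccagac

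Windows were found for 27 of the 29 measured genes, 40 windows in all, and none was held for PDP1 and OGDH. CCAAT was present in 57.5% of the members' windows, belonging to 19 genes, against 34.7% of 20090 windows of all genes. ACGTG was present in 27.5% against 23.0%, and TGCGCA in 12.5% against 9.97%. AAGGTCA was present in 2.5% against 3.21%, in SUCLA2 alone, and GTAAACA in 0% against 2.85%. Windows of 1 gene can overlap, a match is not a binding site, and these shares are descriptions with no test.

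Of the pyruvate carrier subunits, MPC2 fell and MPC1 did not pass. MPC2, which pairs with MPC1 to form the carrier, was at 11.67, 11.53, 11.18, 11.12 and 11.46 in DED arrays 1 to 5, against 12.91, 12.96, 12.92, 12.62 and 12.92 in MA arrays 1 to 5. Every DED array was lower than every MA array. The fall was 2.78-fold (-1.47 on the log2 scale, SE 0.13, adjusted p = 2.9e-08). MPC1 was at 12.64, 12.64, 12.46, 12.63 and 12.62 in DED, against 12.70, 12.70, 12.77, 12.28 and 12.95 in MA. The MPC1 groups overlapped, with MA array 4 the lowest of all. Its difference of -0.08 had a 95% interval of -0.33 to 0.17 and an adjusted p of 0.69. The difference between MPC2 and MPC1 within an array was itself lower in DED than in MA by 1.39 on the log2 scale (exact two-sided permutation test over arrays, p = 0.0079, the smallest possible with 5 against 5, and adjusted p = 0.011 over the 12 such tests made). The pairs for all of these tests were chosen after the values had been seen, so their p-values are descriptive.

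In the pyruvate dehydrogenase complex, 4 of 5 subunits fell and PDHX did not pass. PDHA1, the catalytic alpha subunit on which the kinases act, was at 9.58, 9.33, 9.22, 9.46 and 9.57 in DED, against 10.75, 10.77, 10.77, 10.64 and 10.63 in MA. DLAT, the acetyltransferase that forms the core of the complex, was at 10.35, 9.80, 9.76, 9.51 and 9.64 in DED, against 11.12, 11.20, 11.38, 11.16 and 11.33 in MA. For both genes the groups did not overlap, and DED array 1 was the highest of the DED arrays. PDHA1 fell 2.43-fold (log2 difference -1.28, SE 0.11, adjusted p = 3.3e-08). DLAT fell 2.69-fold (log2 difference -1.43, SE 0.13, adjusted p = 8.4e-08).

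The other subunits moved less. DLD, the dehydrogenase that this complex shares with the oxoglutarate dehydrogenase complex, averaged 8.95 ± 0.27 in DED and 9.58 ± 0.25 in MA (SD, n = 5 arrays each), a difference of -0.64 (SE 0.14, adjusted p = 0.0018 with limma). PDHB, the beta subunit that pairs with PDHA1, averaged 11.20 ± 0.24 in DED and 11.56 ± 0.07 in MA, a difference of -0.36 (adjusted p = 0.035 with limma). The PDHB call was lost when DED array 1, 3 or 4 or MA array 1, 2, 3 or 5 was left out, with differences of -0.37 to -0.30 and adjusted p of 0.054 to 0.091. It was also lost in a fit of only DED and MA, and without DED arrays 1 and 3 together (difference -0.25, adjusted p = 0.20). PDHX, which tethers DLD to the core, averaged 9.89 in DED and 10.10 in MA, a difference of -0.21 with an interval of -0.49 to 0.08. Within arrays, PDHA1 less PDHB was lower in DED by 0.92 and DLAT less PDHX by 1.22 on the log2 scale (adjusted p = 0.011 each, exact permutation tests). The probe sets of these subunits did not differ by equal amounts between the groups. All pairs were chosen after the values had been seen, so these p-values are descriptive.

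**Figure D2:**
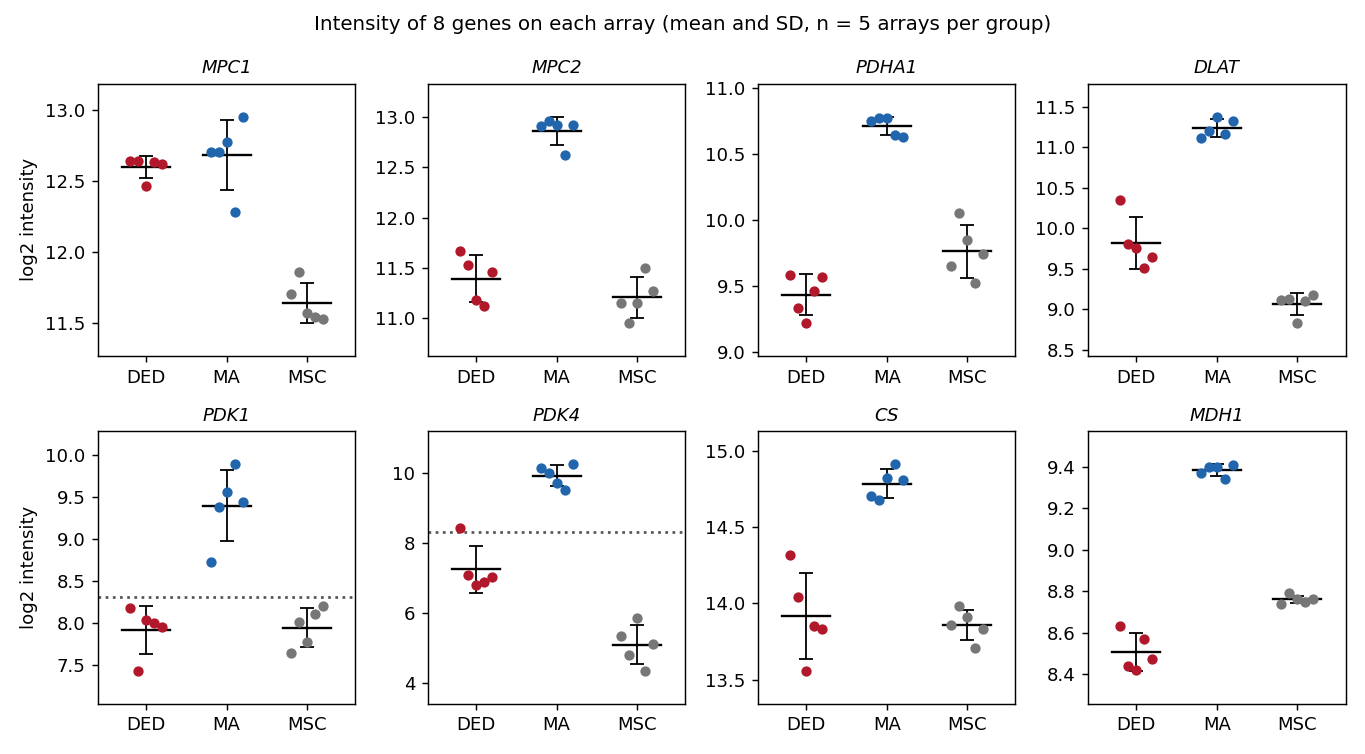
Points are the log2 intensities of 8 genes on the 5 DED, 5 MA and 5 MSC arrays, and bars give the mean and SD of each group; vertical scales differ and do not start at 0, and the dotted line is the 95th percentile of negative controls at 8.31. MPC1 stays high in DED, while the other 7 genes are lower in every DED array than in every MA array.

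Of the kinases, PDK4 and PDK1 fell and PDK2 and PDK3 did not pass. PDK4, a kinase known to rise with fasting and fatty acid supply, was at 8.42, 7.10, 6.80, 6.88 and 7.02 in DED, against 10.15, 10.00, 9.72, 9.51 and 10.25 in MA. The difference was -2.68 (SE 0.28, adjusted p = 3.4e-07). DED array 1 stood above the other DED arrays, the groups did not overlap, and without DED array 1 the difference was -2.98. PDK1, known as a target of hypoxia-inducible factor, was at 8.18, 7.43, 8.04, 8.0 and 7.95 in DED, against 8.72, 9.38, 9.56, 9.89 and 9.44 in MA. All DED values of PDK1 were under those of MA and under 8.31, with a difference of -1.48 (SE 0.18, adjusted p = 3.2e-06). PDK2, the widely expressed form, averaged 8.96 in DED and 9.23 in MA (difference -0.28, adjusted p = 0.36). PDK3 was near the median of the negative controls, with 5.05 in DED and 5.04 in MA.

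The phosphatase and a malic enzyme went the other way. PDP1, the catalytic subunit that reactivates the complex, averaged 11.35 ± 0.17 in DED and 10.89 ± 0.15 in MA (SD, n = 5 each) and rose by 0.45 (SE 0.11, adjusted p = 0.0030 with limma). ME2, which turns malate into pyruvate in the mitochondrion with NAD, averaged 11.58 ± 0.27 in DED and 11.12 ± 0.09 in MA and rose by 0.46 (SE 0.12, adjusted p = 0.0070 with limma). For both genes every DED array was above every MA array. The NADP-dependent ME3 averaged 6.44 in DED and 6.07 in MA, a difference of 0.37 with an adjusted p of 0.063. PC, pyruvate carboxylase, was dim, with means of 5.69 in DED and 5.99 in MA. Its groups did not overlap, but its difference of -0.30 had an adjusted p of 0.11.

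Of 7 genes for the citrate and isocitrate steps, 3 fell. CS, citrate synthase, averaged 13.92 ± 0.28 in DED and 14.78 ± 0.09 in MA (SD, n = 5 each), a 1.82-fold fall (log2 difference -0.86, SE 0.12, adjusted p = 1.8e-05 with limma). DED array 1 had the highest CS value of its group, 14.32, and still lay under the lowest MA value of 14.68. IDH2, the mitochondrial NADP-dependent isocitrate dehydrogenase, fell by 0.54 (adjusted p = 0.0012). IDH3G, a regulatory subunit of the NAD-dependent enzyme of the cycle, fell by 0.59 (adjusted p = 0.0022). Its catalytic partner IDH3A had a difference of 0.16 (interval -0.06 to 0.38) and IDH3B one of -0.29 (adjusted p = 0.053). IDH3B passed under 4 of the 24 alternative settings. IDH3G less IDH3A was lower in DED than in MA by 0.75 within arrays (adjusted p = 0.011, exact permutation test). The cytosolic ACO1, an aconitase that also serves as an iron regulatory protein, had a difference of 0.12 (interval -0.10 to 0.34).

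IDH1, the cytosolic NADP-dependent isocitrate dehydrogenase, differed widely among DED arrays. It was at 12.62, 12.45, 13.89, 13.11 and 13.11 in DED, against 13.16, 13.04, 12.96, 12.96 and 12.94 in MA. DED array 3 was the highest of all and DED arrays 1 and 2 the lowest. The SD was 0.56 in DED and 0.09 in MA, the mean difference was 0.02 (interval -0.37 to 0.41), and without DED array 3 it was -0.19 (adjusted p = 0.36).

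Of 5 genes for the oxoglutarate and succinyl-CoA steps, 3 fell. DLST, the succinyltransferase core of the oxoglutarate dehydrogenase complex, was at 10.62, 10.30, 9.57, 9.65 and 9.70 in DED, against 10.52, 10.43, 10.47, 10.46 and 10.58 in MA. DED array 1 was above every MA array, and DED arrays 3 to 5 were the low ones. The difference of -0.52 (SE 0.16, adjusted p = 0.021) lost its call when DED array 3, 4 or 5 was left out (differences of -0.46 to -0.42, adjusted p of up to 0.065), and was -0.69 without DED array 1. OGDH, the dehydrogenase of that complex, had a difference of -0.04 (interval -0.34 to 0.26). SUCLG1, the shared alpha subunit of succinyl-CoA ligase, fell by 0.63 (adjusted p = 0.0049), and SUCLG2, the beta subunit of the GTP-forming enzyme, fell by 0.44 (adjusted p = 0.0088). SUCLA2, the beta subunit of the ATP-forming enzyme, had a difference of -0.20 (adjusted p = 0.22). All 3 ligase genes lay under 8.31.

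The malate dehydrogenase genes MDH1 and MDH2 differed in their change. MDH1, the cytosolic enzyme of the malate-aspartate shuttle, averaged 8.51 ± 0.09 in DED and 9.38 ± 0.03 in MA (SD, n = 5 each), a 1.84-fold fall (log2 difference -0.88, SE 0.09, adjusted p = 1.8e-07 with limma). MDH2, the enzyme of the cycle itself, averaged 11.47 ± 0.20 in DED and 11.46 ± 0.15 in MA, a difference of 0.01 (interval -0.24 to 0.26). MDH1 less MDH2 was lower in DED by 0.89 within arrays (adjusted p = 0.011, exact permutation test). For SUCLG2 less SUCLA2 the difference was -0.23 (adjusted p = 0.14, exact permutation test).

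**Figure D3:**
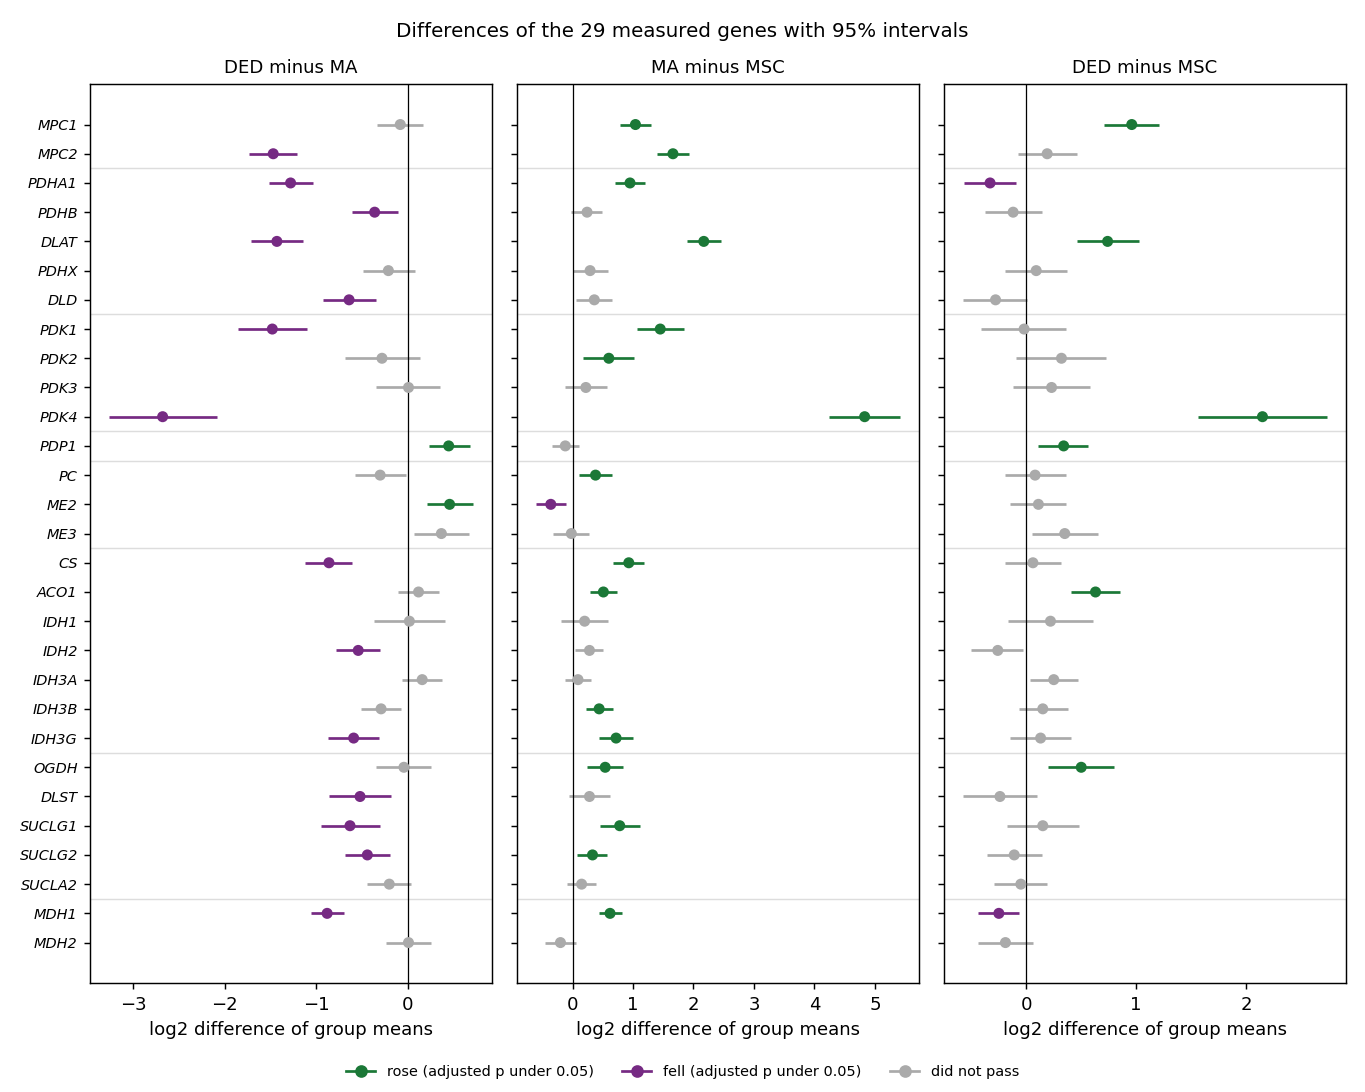
Points are log2 differences of group means for the 29 genes with 95% intervals, for DED minus MA, MA minus MSC and DED minus MSC; green and purple mark genes that rose or fell at an adjusted p under 0.05. PDK4 has the largest difference in each panel, and most differences of DED minus MSC lie near 0.

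Markers of fat cells and of other cell types moved in the same comparisons. The mean of 7 adipocyte markers was 11.19, 10.26, 10.10, 9.97 and 10.13 in DED arrays 1 to 5, against 12.08 to 12.25 in MA arrays and 5.24 to 5.47 in MSC arrays. Of the 7 markers, 6 fell in DED relative to MA. The mean of the 4 kinases was 7.70, 7.21, 7.18, 7.16 and 7.21 in DED, against 8.28 to 8.58 in MA and 6.51 to 6.72 in MSC. DED array 1 was the highest of its group for both means. The kinase mean includes PDK3, near the median of the negative controls, and PDK4. On DED array 1 PDK4 was at 8.42, against 6.80 to 7.10 on the other DED arrays. PDK1 and PDK2 also had their highest DED values there, at 8.18 and 9.19. The mean of the 5 subunits of the pyruvate dehydrogenase complex was 10.0, 9.84, 9.69, 9.75 and 10.01 in DED, against 10.57 to 10.76 in MA and 9.73 to 10.04 in MSC, and was as high in DED array 5 as in DED array 1. PDK4, DLAT, CS, DLST, MPC2 and DLD were among the genes with their highest DED value on array 1. Without that array 13 of the 29 genes fell and 2 rose, with differences of -1.54 for MPC2, -1.56 for DLAT, -0.96 for CS and -0.74 for DLD. Of 6 mesenchymal markers, THY1 and ENG rose (0.76 and 0.74) and NT5E and CD44 fell (-0.70 and -0.46) in DED relative to MA, while THY1, ENG and ITGB1 fell in MA relative to MSC (-1.55, -1.18 and -0.97). In DED relative to MA, CD14 rose by 1.40 and CD34 and CD68 fell by 1.37 and 1.18, with DED means under 8.31. In MA relative to MSC, CD34 rose by 0.95 and CD68 by 0.82. The other macrophage markers, CSF1R and MRC1, passed in no comparison. In DED relative to MSC 7 of 7 adipocyte markers rose, 5 of 6 mesenchymal markers fell and CD14 rose by 1.40. The part of these markers in the differences of the 29 genes was not tested.

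**Figure D4:**
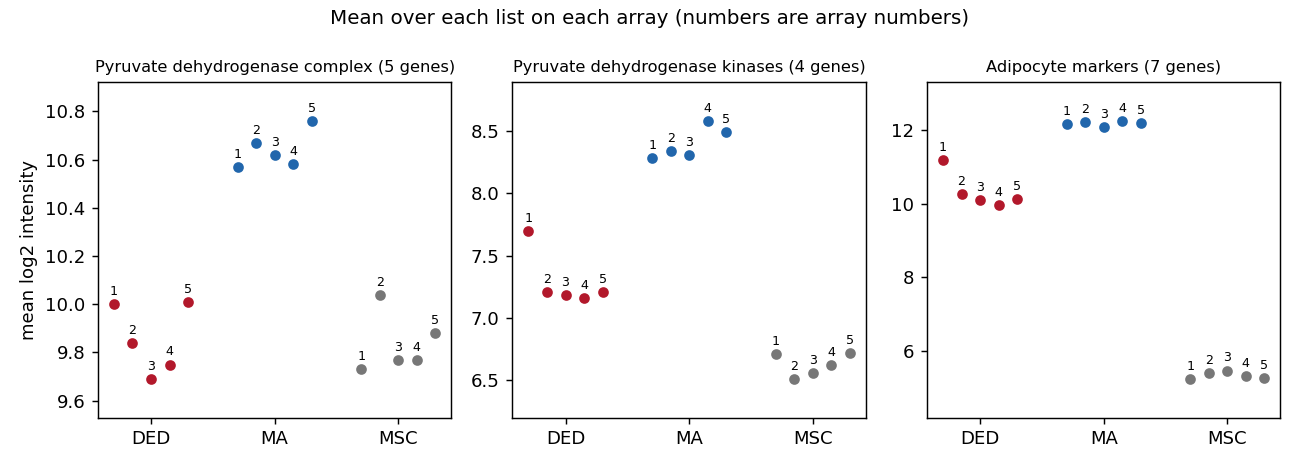
Points are the mean log2 intensity over 5 subunits of the pyruvate dehydrogenase complex, 4 kinases and 7 adipocyte markers on each DED, MA and MSC array, numbered by array; vertical scales differ and do not start at 0. DED array 1 is highest in its group for the kinases (7.70) and the adipocyte markers (11.19), and DED arrays 1 and 5 are alike for the complex (10.0 and 10.01). The kinase mean includes PDK4, at 8.42 on DED array 1 and 6.80 to 7.10 on the other DED arrays.

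In the comparison of MA with MSC, which addresses adipogenic differentiation together with its change of medium and time, 16 of the 29 genes rose, 1 fell and 12 did not pass. Across all genes 15.4% rose and 17.6% fell. The median difference was 0.38 over the 29 genes and -0.002 over all genes. All 5 MA arrays lay above all 5 MSC arrays for 15 of the 29, against 12.4% of all genes. A rise with a log2 difference of at least 1 was found for 5 genes, MPC1, MPC2, DLAT, PDK1 and PDK4, against 5.07% of all genes, and PDK1 and PDK4 had MSC means under 8.31. Among genes with a mean of at least 8.31 over all arrays, 25.6% rose, and of the 22 members in that range 12 rose. The MA arrays are part of that mean, and PDK1, with an MSC mean of 7.94, is among the 12. This comparison shares the MA arrays with that of DED and MA, so the values of both are set side by side and no agreement between them is counted.

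Both carrier subunits rose. MPC2 was at 12.91, 12.96, 12.92, 12.62 and 12.92 in MA, against 11.15, 10.95, 11.15, 11.50 and 11.27 in MSC, a 3.16-fold rise (log2 difference 1.66, SE 0.13, adjusted p = 2.1e-09). MPC1 was at 12.70, 12.70, 12.77, 12.28 and 12.95 in MA, against 11.70, 11.86, 11.57, 11.54 and 11.53 in MSC, a 2.06-fold rise (log2 difference 1.04, SE 0.12, adjusted p = 5.8e-07). Neither gene had overlapping groups. MPC2 less MPC1 was higher in MA than in MSC by 0.62 within arrays (adjusted p = 0.011, exact permutation test).

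DLAT and PDHA1 were the subunits of the pyruvate dehydrogenase complex that rose. DLAT was at 11.12, 11.20, 11.38, 11.16 and 11.33 in MA, against 9.11, 9.12, 8.83, 9.10 and 9.18 in MSC, a 4.5-fold rise (log2 difference 2.17, SE 0.13, adjusted p = 7.9e-11). PDHA1 was at 10.75, 10.77, 10.77, 10.64 and 10.63 in MA, against 9.65, 10.05, 9.85, 9.52 and 9.74 in MSC, a 1.93-fold rise (log2 difference 0.95, SE 0.11, adjusted p = 1.0e-06). The groups did not overlap for either. PDHB, PDHX and DLD had differences of 0.24 to 0.36 with adjusted p from 0.06 to 0.15. DLD passed under 7 of the 24 alternative settings and PDHX under 2. Within arrays DLAT less PDHX was higher in MA than in MSC by 1.88, and PDHA1 less PDHB by 0.71 (adjusted p = 0.011 each, exact permutation tests).

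Of the kinases, 3 of 4 rose. PDK4 was at 10.15, 10.00, 9.72, 9.51 and 10.25 in MA, against 5.34, 4.80, 5.86, 4.35 and 5.12 in MSC, where it lay near the median of the negative controls. The difference of 4.83 (SE 0.28, adjusted p = 2.9e-11) therefore depends on the background in MSC and is not given as a fold. PDK1 was at 8.72, 9.38, 9.56, 9.89 and 9.44 in MA, against 7.64, 8.01, 7.77, 8.10 and 8.2 in MSC, with no overlap (difference 1.45, SE 0.18, adjusted p = 2.2e-06). PDK2 had a difference of 0.60 (adjusted p = 0.025), and its call was lost without MA array 1 or 5 or MSC array 2 or 3 (lowest difference 0.39, adjusted p of up to 0.075). PDP1 had a difference of -0.12 (interval -0.34 to 0.11).

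Of the genes for the citrate to malate steps, 8 rose, 6 of mitochondrial enzymes and the cytosolic ACO1 and MDH1. CS averaged 14.78 ± 0.09 in MA and 13.86 ± 0.10 in MSC (SD, n = 5 each), a 1.90-fold rise (log2 difference 0.93, SE 0.12, adjusted p = 4.4e-06 with limma). MDH1 averaged 9.38 ± 0.03 in MA and 8.76 ± 0.02 in MSC and rose 1.54-fold (log2 difference 0.62, SE 0.09, adjusted p = 8.9e-06 with limma), while MDH2 had a difference of -0.20 (interval -0.45 to 0.05). The remaining rises ranged from 0.33 for SUCLG2 to 0.78 for SUCLG1, with IDH3G at 0.72, OGDH at 0.54, ACO1 at 0.51 and IDH3B at 0.44. Within arrays MDH1 less MDH2 was higher in MA than in MSC by 0.82 (adjusted p = 0.011), IDH3G less IDH3A by 0.64 (adjusted p = 0.019) and SUCLG2 less SUCLA2 by 0.18 (adjusted p = 0.27), each by the exact permutation test. The SUCLG2 call (adjusted p = 0.040) was lost without MA array 2, 4 or 5 or MSC array 1, 2 or 5 (differences of 0.25 to 0.34, adjusted p of up to 0.12), and with an intensity trend and robust fit (adjusted p = 0.058). PC rose by 0.38 (adjusted p = 0.031) at intensities under 8.31, a call lost without MA array 4 or 5 or MSC array 1, 3 or 5 (differences of 0.29 to 0.38, adjusted p of up to 0.10) or with quantile normalization (adjusted p = 0.062). ME2, the gene that fell, averaged 11.12 in MA and 11.47 in MSC (difference -0.36, adjusted p = 0.029), a call lost without MA array 3, 4 or 5 or MSC array 3 or 5 (differences of -0.35 to -0.31, adjusted p of up to 0.076).

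In the comparison of DED with MSC, which sets the conditioned cells against cells never differentiated, 6 of the 29 genes rose, 2 fell and 21 did not pass. Across all genes 17.1% rose and 16.4% fell. The median difference was 0.13 over the 29 genes and 0.028 over all genes. A rise with a log2 difference of at least 1 was found for PDK4 alone, which had means under 8.31 in both groups, against 4.96% of all genes, and a fall of that size for 0 members, against 5.68%. These shares are near or under those of all genes.

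PDK4 was at 8.42, 7.10, 6.80, 6.88 and 7.02 in DED, against 5.34, 4.80, 5.86, 4.35 and 5.12 in MSC, with no overlap. Its difference was 2.15 (SE 0.28, adjusted p = 3.3e-06), and 1.86 without DED array 1. MPC1 averaged 12.60 ± 0.08 in DED and 11.64 ± 0.14 in MSC (SD, n = 5 each), a 1.94-fold rise (log2 difference 0.96, SE 0.12, adjusted p = 1.6e-06 with limma), while MPC2 had a difference of 0.19 (interval -0.08 to 0.46). DLAT rose by 0.74 (SE 0.13, adjusted p = 0.00016), and by 0.61 without DED array 1. ACO1 rose by 0.63 (adjusted p = 7.3e-05) and OGDH by 0.50 (adjusted p = 0.0088). PDP1 rose by 0.34 (adjusted p = 0.018), a call lost without DED array 4 or 5 (differences of 0.31 and 0.30, adjusted p of up to 0.053).

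The genes lower in DED than in MSC were PDHA1 and MDH1. PDHA1 averaged 9.43 ± 0.16 in DED and 9.76 ± 0.20 in MSC (difference -0.33, adjusted p = 0.029 with limma, n = 5 each), with overlapping groups, and lost its call without DED array 2 or 3 or MSC array 2 or 3 (differences of -0.31 to -0.26, adjusted p of up to 0.093), without DED arrays 1 and 3 together (adjusted p = 0.069) and in a fit of only DED and MSC (adjusted p = 0.054). MDH1 averaged 8.51 ± 0.09 in DED and 8.76 ± 0.02 in MSC (difference -0.25, adjusted p = 0.030 with limma), with no overlap. Its call was lost without DED array 2, 3 or 5 or MSC array 2 or 5 (differences of -0.25 to -0.23, adjusted p of up to 0.066), with quantile normalization (adjusted p = 0.076) and in a fit of only DED and MSC (adjusted p = 0.053). The number of genes that fell was 4 without DED array 1 and 0 without DED array 2 or MSC array 2. CS differed by 0.06 (interval -0.19 to 0.32) and PDK1 by -0.02 (interval -0.41 to 0.36).

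**Figure D5:**
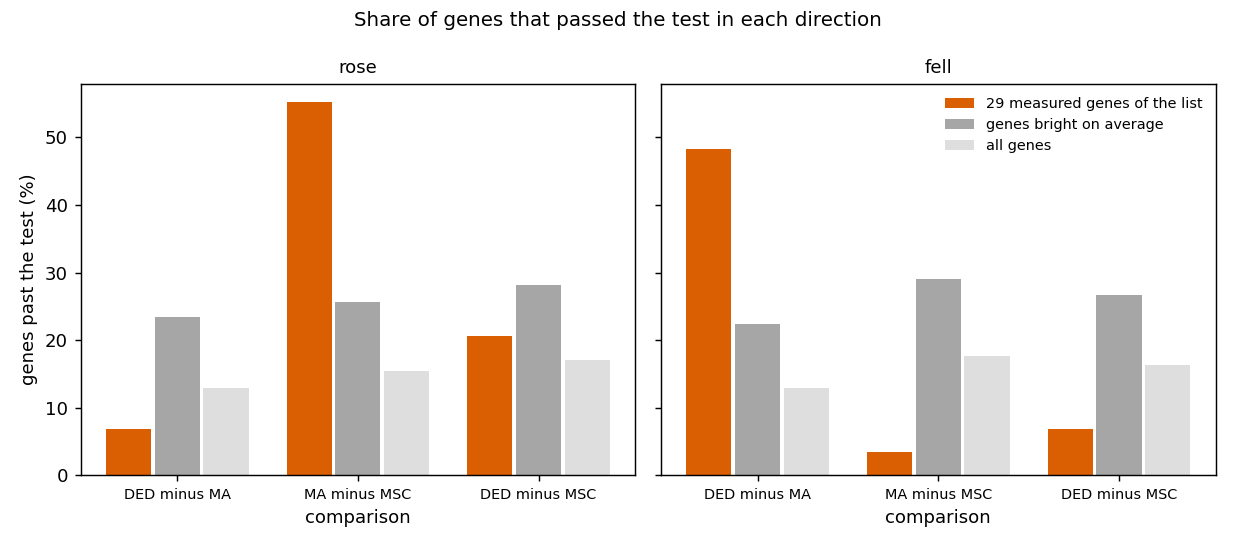
Bars start at 0 and give the percentage of genes that rose (left) or fell (right) at an adjusted p under 0.05 in each comparison. The sets are the 29 genes, genes with a mean of at least 8.31 over all arrays and all 17687 genes. The list was chosen with earlier results of these data known. In DED minus MA 48.3% of the 29 fell against 13% of all genes, in MA minus MSC 55.2% rose against 15.4%, and in DED minus MSC the 29 lay within a few points of all genes for rises and under them for falls.

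Genes next to the cycle were read from lists of 61 symbols, of which 52 were measured. Across all genes 12.9% rose and 13% fell in DED relative to MA. The shares were 15.4% and 17.6% in MA relative to MSC, and 17.1% and 16.4% in DED relative to MSC. The lists are small, and their counts are descriptions with no test against these shares. Of 7 genes for succinate dehydrogenase, which oxidises succinate in the cycle and passes electrons to the respiratory chain, and its assembly factors, 3 fell and 0 rose in DED relative to MA, with SDHA at -0.99 and SDHC at -0.76. In MA relative to MSC, 5 of them rose, with SDHC at 0.77 and SDHA at 0.73. In DED relative to MSC, 1 rose, SDHAF2 at 0.44. Of 5 genes that make the lipoic acid cofactor of DLAT and DLST or attach it, 1 passed in each comparison: FDX1 at -0.57 in DED relative to MA, OXSM at 0.31 in MA relative to MSC and LIPT1 at 0.52 in DED relative to MSC. FDX1, OXSM and LIPT1 had means under 8.31 in the groups compared.

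Of 9 mitochondrial carriers of cycle intermediates, 4 fell and 0 rose in DED relative to MA. SLC25A1, which exports citrate to the cytosol, averaged 8.61 ± 0.51 in DED, 10.43 ± 0.19 in MA and 8.35 ± 0.06 in MSC (SD, n = 5 each). It fell by 1.83 in DED relative to MA (adjusted p = 1.4e-07 with limma) and rose by 2.09 in MA relative to MSC. The dicarboxylate carrier SLC25A10 fell by 1.05 in DED relative to MA, at intensities under 8.31. Among all 9 carriers, 3 rose and 1 fell in MA relative to MSC, and 0 rose and 2 fell in DED relative to MSC.

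Of 14 genes for other entry and exit of cycle carbon, 4 rose and 5 fell in DED relative to MA. ACLY, which splits exported citrate, fell by 1.91, and the alanine aminotransferase GPT fell by 0.89 at intensities under 8.31. PCK2, the mitochondrial phosphoenolpyruvate carboxykinase, rose by 1.95, and GOT1, the cytosolic aspartate aminotransferase, rose by 1.69. In MA relative to MSC 7 rose and 4 fell, with the cytosolic malic enzyme ME1 at 2.31, PCK1 at 2.25, GOT1 at -1.82 and PCK2 at -1.54. In DED relative to MSC 5 rose and 2 fell, with the mitochondrial acetyl-CoA synthetase ACSS1 at 2.37, ME1 at 1.51, the ketone body enzyme OXCT1 at -1.25 and GOT2 at -0.83. PCK2 had means under 8.31 in MA and MSC, and PCK1 and ACSS1 had them in MSC.

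Of 5 genes for lactate and monocarboxylates, 4 fell in DED relative to MA, with the transporter SLC16A7 at -0.58 and BSG, basigin, an ancillary protein of related transporters, at -0.49. SLC16A7 was 2.58 higher in MA than in MSC, where 2 of the 5 rose. The MSC mean of SLC16A7 was 8.18, under 8.31. In DED relative to MSC, SLC16A7 rose by 2.0 and BSG fell by 0.34. Of 12 regulators of mitochondrial gene expression, 3 rose and 2 fell in DED relative to MA, with HIF1A, the hypoxia-inducible factor subunit, at 1.43, the transcription factor TFB2M at 0.71, PPARGC1B at -0.41 and GABPA at -0.40. In MA relative to MSC 4 rose and 4 fell, with the coactivator PPARGC1A at 2.02, PPARA at 0.85, PPRC1 at -0.85 and HIF1A at -0.84. In DED relative to MSC 5 rose and 3 fell, with PPARGC1A at 1.86, PPARA at 0.95, TFAM at -0.58 and PPRC1 at -0.57. Means under 8.31 were found for PPARGC1A and PPARGC1B in every group, PPARA in MSC, and PPRC1 in DED and MA.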

How the data were processed

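The authors deposited log2 intensity values for 24351 probe sets on 15 arrays, made with RMA and Transcriptome Analysis Console according to the submitters' processing notes (per the labels). Which versions, RMA variant and genome build they used is not given in the sources used here. From the platform annotation 17709 probe sets carried 1 symbol. Where a gene had several probe sets (20 genes) the one with the highest mean was kept, which left 17687 genes. No filter was applied. Groups came from the sample titles.

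The comparisons used R 4.3.3 and limma 3.58.1, with eBayes without trend on a fit of 1 mean per group to all 15 arrays. Tests were two-sided and adjusted by Benjamini-Hochberg over 17687 genes. The script was tested on simulated data. Pairs of subunits were chosen after the values had been seen and compared by exact permutation tests over arrays. All 31 genes are named; those past the test with a difference of 1 or more in any comparison are given by array. In the neighbouring lists up to 2 rises and 2 falls per comparison are named. Members and lists were chosen with earlier results of these data known. Promoters are from RefSeq (GRCh38.p14). The number of arrays limits the precision. Alternatives were quantile normalization, array weights, a shift to 1 median, a robust fit with an intensity trend, leaving out genes whose mean lay under the 25th percentile, single probe sets, a fit of only the groups compared, a block for the replicate number, and fits without each array and without DED arrays 1 and 3. Python 3.11.15 with matplotlib 3.10.9 drew the figures.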

Additional observations from a re-analysis of the deposited data

Results flagged for a closer look

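In 7 of 87 sets of 5 arrays (29 genes in 3 groups), 1 array lay far from the other 4 by a Dixon test, which chance does in about 1 of 20. PDK4 was 8.42 in DED array 1, against 6.80 to 7.10 in the other DED arrays. MPC1 was 12.46 in DED array 3, against 12.62 to 12.64 in the others. IDH3G was 9.5 in DED array 3, against 9.13 to 9.20. OGDH was 11.64 in DED array 2, against 10.93 to 11.11. PC was 5.50 in DED array 5, against 5.72 to 5.76, all dim values. MPC2 was 12.62 in MA array 4, against 12.91 to 12.96 in the other MA arrays. DLAT was 8.83 in MSC array 3, against 9.10 to 9.18 in the other MSC arrays. The DED group held 5 of the 7 values.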

How the results depend on the processing

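Of the 87 differences (29 genes in 3 comparisons), 41 passed the test, and 32 of these passed in the same direction under all 24 alternatives. The other 9 were lost under some alternative and 0 of the 41 changed sign. Of the 46 that did not pass, 11 passed under some alternative and 10 changed sign. PDK3 has no value with dim genes left out.

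Leaving out 1 array at a time gave 12 to 14 genes that fell and 2 to 3 that rose in DED minus MA, 13 to 17 that rose and 0 to 1 that fell in MA minus MSC, and 5 to 8 that rose and 0 to 4 that fell in DED minus MSC. In DED minus MSC the number that fell was 1 with quantile normalization, 0 with only the groups compared, 1 with the replicate block and 1 without DED arrays 1 and 3. No shared deviation by replicate number was seen. Deviations of same-numbered arrays from their group means correlated at -0.03 to 0.049 for DED and MA. The correlations were -0.048 to 0.087 for MA and MSC, and -0.108 to 0.006 for DED and MSC. The labels do not state whether same-numbered arrays were handled together, and these correlations do not decide it. The replicate block gave 14 falls and 2 rises in DED minus MA, 15 rises and 1 fall in MA minus MSC, and 6 rises in DED minus MSC. It ended the calls of SUCLG2 in MA minus MSC (adjusted p = 0.055) and MDH1 in DED minus MSC (adjusted p = 0.062).

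Differences that changed sign were all small and the cause was not tested. In DED minus MA, MDH2 was -0.04 with quantile normalization, -0.02 without DED arrays 1 and 3 and -0.05 to 0.07 with 1 array left out. IDH1 was -0.03 with array weights, -0.12 without DED arrays 1 and 3 and -0.19 to 0.17 with 1 array left out. OGDH was 0.01 without DED arrays 1 and 3 and -0.17 to 0.01 with 1 array left out, and PDK3 was -0.07 to 0.19. In MA minus MSC, ME3 was -0.07 to 0.09 with 1 array left out. In DED minus MSC, PDK1 was 0.02 with quantile normalization and -0.10 to 0.10 with 1 array left out, and SUCLA2 was 0.01 without DED arrays 1 and 3. With 1 array left out CS was -0.04 to 0.15, PC -0.01 to 0.16 and PDHX 0 to 0.16. Genes under 8.31 are limited by background.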
